A study of Homo sapiens with 6 samples.

Results

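The genes described here are 39 nuclear genes of the tricarboxylic acid (TCA) cycle, pyruvate import, the pyruvate dehydrogenase complex with its kinases and phosphatases, the linked pyruvate and malate enzymes, and the attachment of lipoic acid. They were taken by symbol from a table of 67140 Ensembl genes, and all 39 were found. They were measured by RNA-seq in CAPAN-2, an established line of human pancreatic ductal adenocarcinoma. By their labels, 3 libraries came from cells overexpressing SIRT4 and 3, named ctrl, from control cells of the same line without that overexpression. The vector, the duration of overexpression, and whether the replicates were separate cultures were not stated in the labels. The p-values below therefore reflect differences among these libraries alone, some of which may be technical.

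The TCA cycle oxidises acetyl groups in the mitochondrial matrix to carbon dioxide and passes the electrons to the respiratory chain. Pyruvate enters the matrix through the mitochondrial pyruvate carrier and is turned into acetyl-CoA by the pyruvate dehydrogenase complex, which kinases switch off by phosphorylating its E1 subunit and phosphatases switch on again. The E2 subunits of this complex and of the 2-oxoglutarate dehydrogenase complex carry lipoic acid on a lysine, and SIRT4, a sirtuin of the mitochondrial matrix, is reported to remove lipoyl groups from pyruvate dehydrogenase. That reported activity acts on protein, whereas the values below are transcript levels only.

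SIRT4 itself was at 3.31, 2.80 and 3.60 CPM in SIRT4 replicates 1 to 3, and at 2.47, 1.96 and 1.83 CPM in ctrl replicates 1 to 3. CPM values were computed from the deposited estimated counts on TMM-scaled library sizes. The 3 SIRT4 libraries lay above the 3 ctrl libraries, but the log2 fold change of 0.63 (SE 0.21) missed the threshold of 0.05 (edgeR quasi-likelihood test, Benjamini-Hochberg adjusted p = 0.0752). Over the 15 alternatives the log2 fold change of SIRT4 lay between 0.55 and 0.77 and its adjusted p between 0.0576 and 0.2. It passed under none of these alternatives, so the SIRT4 transcript level does not bear out the labelled overexpression at this threshold, and the groups below are named as the libraries are labelled. Library totals were 50945991 to 65156041 units. In the 6 libraries the 8 epithelial duct markers, led by KRT8, KRT19 and KRT18, summed to 4507.1 to 4650.9 CPM in SIRT4 and 2416.4 to 2536.2 CPM in ctrl libraries. These 3 keratins rose (37.5% of the 8, beside 9.38% of all tested genes). SOX9 fell (12.5%, beside 7.67%), at a mean of 275.0 CPM in SIRT4 and 387.6 CPM in ctrl libraries (log2 fold change -0.49, edgeR adjusted p = 0.00127). KRT7, EPCAM, CDH1 and MUC1 did not pass. The 8 fibroblast markers summed to 176.2 to 182.1 CPM in SIRT4 and 174.2 to 189.7 CPM in ctrl libraries. Nearly all of it was COL1A1, at a mean of 169.6 CPM in SIRT4 and 175.1 CPM in ctrl libraries. COL1A2, DCN and FAP were at 0, and LUM and PDGFRA at no more than 0.155 CPM in any library. The 4 endothelial markers summed to at most 1.44 CPM in SIRT4 and 0.638 CPM in ctrl libraries. The 6 leukocyte markers summed to 37.0 to 47.1 CPM in SIRT4 and 61.2 to 91.1 CPM in ctrl libraries, nearly all of it CD68, a lysosomal glycoprotein, at a mean of 39.4 CPM in SIRT4 and 73.6 CPM in ctrl libraries. CD3E was at 0, PTPRC and LYZ were at or near 0 (at most 0.097 CPM), and CD14 averaged 3.36 CPM in SIRT4 and 2.26 CPM in ctrl libraries without passing. The 8 acinar and endocrine markers summed to 25.2 to 32.8 CPM in SIRT4 and 36.2 to 42.3 CPM in ctrl libraries, nearly all of it SYP, a synaptic vesicle protein, at a mean of 28.2 CPM in SIRT4 and 38.3 CPM in ctrl libraries. AMY2A, INS and GCG were at 0, and the other 4 at no more than 0.175 CPM in any library. The part of the keratin, SOX9, CD68 and SYP differences in the results below was not tested. In bulk RNA, fewer cells of a type and less RNA per cell cannot be told apart.

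Subunits of pyruvate dehydrogenase, NAD-dependent isocitrate dehydrogenase and succinyl-CoA ligase, and fumarase, were among the genes that rose in the SIRT4 libraries, and the mitochondrial phosphoenolpyruvate carboxykinase PCK2 fell. Of the 39 genes, all of which passed the low-count filter, 12 rose and 1 fell at an edgeR adjusted p under 0.05. That is 30.8% higher, beside 9.38% of all 20786 tested genes, and 2.56% lower, beside 7.67% of all tested genes. The 12 were PDHB, DLAT, PDP1, ME3, IDH2, IDH3A, IDH3B, SUCLG1, SUCLA2, SDHB, FH and MDH1. The median log2 fold change was 0.20 over the 39 genes and -0.02 over all tested genes, and 32 of the 39 fold changes were positive. Among the 15423 genes left by a stricter low-count filter 13.1% were higher and 11.4% lower, and 12 of the 39 were higher and 2 lower there. The count of higher genes among the 39 was 7 (17.9%) without SIRT4 replicate 3, beside 6.48% of all genes tested there. It was 8 to 10 (20.5% to 25.6%) without each of the other libraries, beside 6.01% to 7.25% of all genes tested there.

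**Figure D1:**
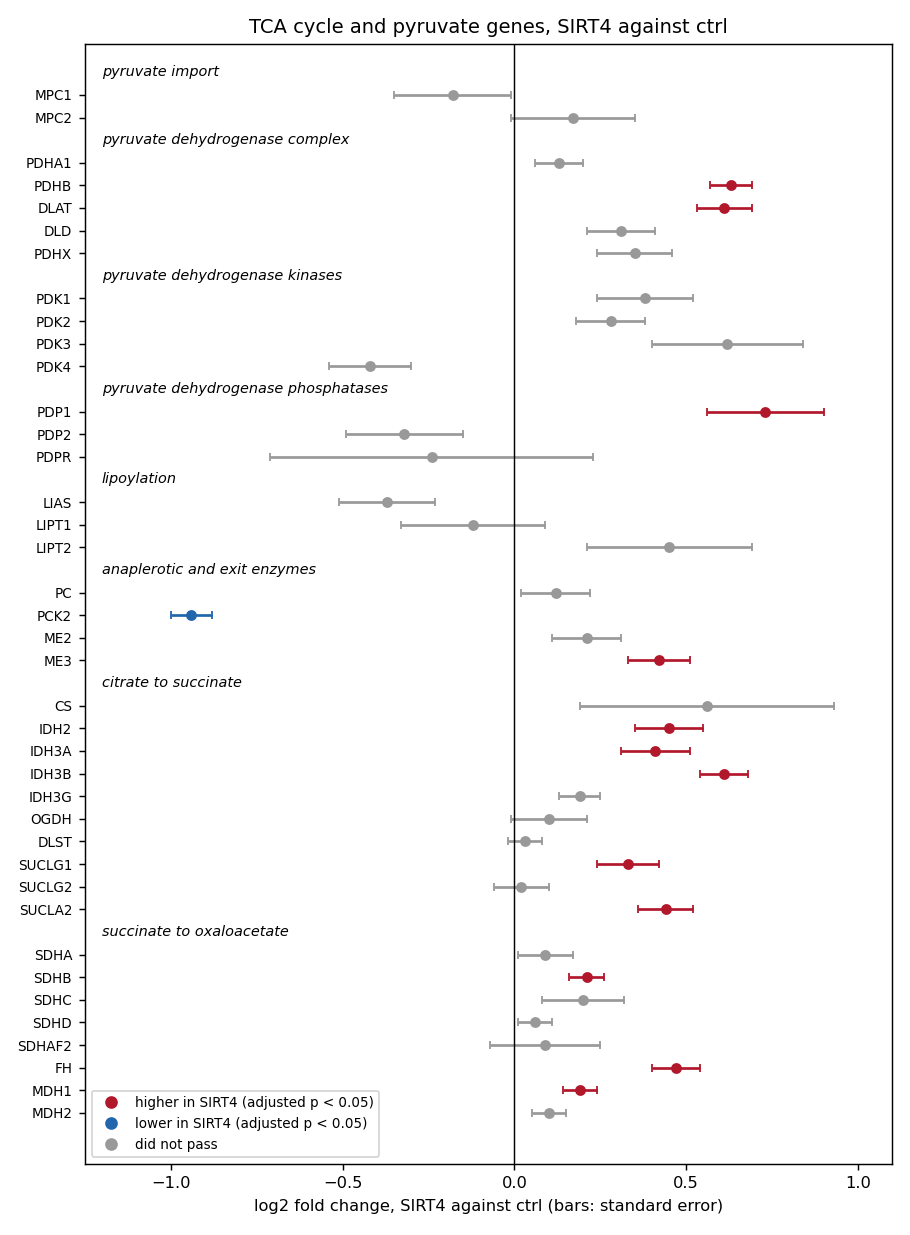
Log2 fold change, SIRT4 against ctrl, of each of the 39 genes (points) with its standard error (bars), grouped by role and coloured by the edgeR call at an adjusted p under 0.05. The 12 genes called higher lie between 0.19 and 0.73, and PCK2 stands apart at -0.94.

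Counted by library and not by test, every SIRT4 library lay above every ctrl library for 19 of the 39 genes. That is a larger share than the 3867 of all 20786 tested genes (18.6%). Every SIRT4 library lay below every ctrl library for 3 of the 39, a smaller share than the 3940 of all tested genes (19.0%). The groups overlapped for the other 17. The 26 genes that did not pass had log2 fold changes from -0.42 (PDK4) to 0.62 (PDK3), with 20 above 0 and 6 below. Summed over the 39 genes, levels were 3030.2, 3250.4 and 3123.4 CPM in the SIRT4 libraries and 2792.8, 2677.6 and 2853.1 CPM in the ctrl libraries, so every SIRT4 sum lay above every ctrl sum. The ratio of the mean sums was 1.13.

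**Figure D2:**
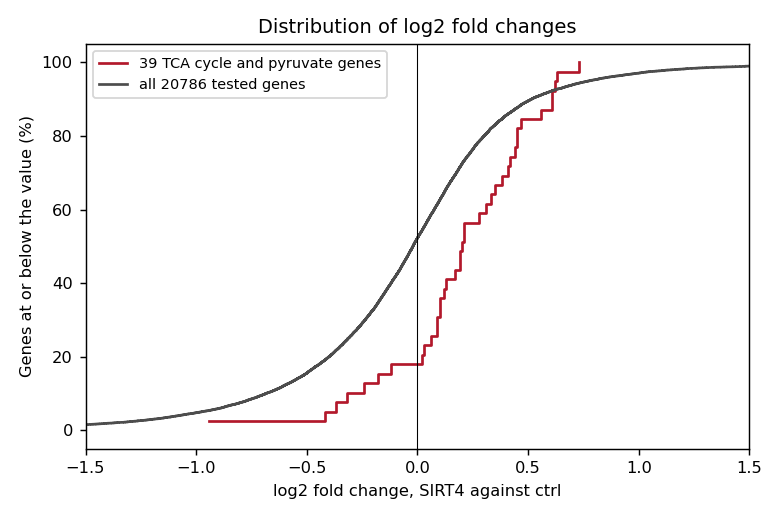
Percentage of genes (vertical axis) at or below a given log2 fold change, SIRT4 against ctrl (horizontal axis), for the 39 TCA cycle and pyruvate genes and for all 20786 tested genes. The curve of the 39 genes crosses 50% near its median of 0.20, to the right of the median of all tested genes at -0.02.

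The stretches upstream of the transcription start are shown for the 6 genes whose calls held under all 15 alternatives, 5 of them higher and PCK2 lower. They come from RefSeq's promoter table, which matched 36 of the 39 genes, and each line gives the 150 bases before the RefSeq start, 5′ to 3′ on the gene's strand. Capitals mark matches, on either strand, to GCGCA, any base, then GCGC (the NRF1 element), CCGGAAG (an ETS element), CCAAT, and TGATGNAA (part of the element bound by ATF4 dimers).
PDHB (GRCh38.p14, chr3:58433833-58433982, minus strand): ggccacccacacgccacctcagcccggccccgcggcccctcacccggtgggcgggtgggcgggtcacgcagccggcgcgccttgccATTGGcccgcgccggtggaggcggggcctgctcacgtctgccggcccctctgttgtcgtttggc
DLAT (GRCh38.p14, chr11:112025258-112025407, plus strand): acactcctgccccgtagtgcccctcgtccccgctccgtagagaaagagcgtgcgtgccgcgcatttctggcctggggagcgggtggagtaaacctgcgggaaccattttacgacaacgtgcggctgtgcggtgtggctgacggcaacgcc
IDH3B (GRCh38.p14, chr20:2664217-2664366, minus strand): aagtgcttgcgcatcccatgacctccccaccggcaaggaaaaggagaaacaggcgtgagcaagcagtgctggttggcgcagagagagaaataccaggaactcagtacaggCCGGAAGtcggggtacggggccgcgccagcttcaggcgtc
FH (GRCh38.p14, chr1:241519756-241519905, minus strand): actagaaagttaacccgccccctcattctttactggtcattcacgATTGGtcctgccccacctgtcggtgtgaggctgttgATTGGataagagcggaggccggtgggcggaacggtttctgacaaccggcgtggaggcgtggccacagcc
SUCLA2 (GRCh38.p14, chr13:48001274-48001423, minus strand): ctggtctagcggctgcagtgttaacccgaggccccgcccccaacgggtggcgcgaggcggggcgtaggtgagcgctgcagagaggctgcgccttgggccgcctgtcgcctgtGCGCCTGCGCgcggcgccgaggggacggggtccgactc
PCK2 (GRCh38.p14, chr14:24094161-24094310, plus strand): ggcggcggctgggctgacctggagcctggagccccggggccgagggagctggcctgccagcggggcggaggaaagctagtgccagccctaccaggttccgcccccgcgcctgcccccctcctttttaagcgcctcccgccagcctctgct
SUCLA2 holds an NRF1 match that begins 38 bases before the start on the opposite strand, IDH3B an ETS match at 40 bases, PDHB a CCAAT match at 64 bases on the opposite strand, and FH CCAAT matches at 105 and 69 bases on the opposite strand. DLAT and PCK2 hold none in these stretches. The stretches of DLAT, SUCLA2 and PCK2 lie inside the GENCODE coordinates of these genes, which begin further upstream than the RefSeq start. The matches there hold for the RefSeq start only. Over the whole window of 250 bases before to 50 after the start, the NRF1 letters occurred in 6 of the 36 promoters of these genes (16.7%) and in 5.78% of all 35116 promoters in the table. The ETS letters occurred in 8 of 36 (22.2%, beside 10.3% of all) and CCAAT in 22 of 36 (61.1%, beside 34.6% of all). Among the 12 called genes with a promoter in the table, the NRF1, ETS and CCAAT letters occurred in 2, 2 and 7. TGATGNAA occurred in 0 of 36 and in 3.62% of all promoters. These matches describe the letters only.

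Pyruvate import did not pass in either subunit. MPC1, one subunit of the carrier, was at 6.64 to 7.38 CPM in SIRT4 and 6.91 to 9.93 CPM in ctrl libraries. MPC2, the other, was at 33.0 to 49.7 CPM in SIRT4 and 34.7 to 45.1 CPM in ctrl libraries. Both sets of values overlapped. The exons of MPC2 share 575 bases with DCAF6 on the opposite strand, and no source used here states the strand setting of the counting, so reads there cannot be told apart.

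Within the pyruvate dehydrogenase complex, the E1 beta subunit gene and the E2 gene rose, and the other 3 did not pass. PDHB (ENSG00000168291, GRCh38 chromosome 3, 58427630 to 58433857, minus strand), which encodes E1 beta, was at 80.2, 79.8 and 80.0 CPM in the SIRT4 libraries and at 50.0, 54.7 and 50.9 CPM in the ctrl libraries. The SIRT4 libraries lay within 1 CPM of each other and far above every ctrl library, and the log2 fold change was 0.63 (SE 0.06, edgeR adjusted p = 0.000355). DLAT (ENSG00000150768, chromosome 11, 112024814 to 112064390, plus strand), the lipoylated E2 that forms the core of the complex, was at 106.5, 113.8 and 120.6 CPM in the SIRT4 libraries and at 77.8, 67.7 and 78.0 CPM in the ctrl libraries. The groups did not overlap, and the log2 fold change was 0.61 (SE 0.08, edgeR adjusted p = 0.0014).

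PDHA1, the E1 alpha subunit that the kinases phosphorylate, was at 78.1, 82.6 and 87.4 CPM in the SIRT4 libraries and at 75.1, 71.5 and 79.4 CPM in the ctrl libraries. SIRT4 replicate 1 lay below ctrl replicate 3, and the log2 fold change of 0.13 (SE 0.07) did not pass (edgeR adjusted p = 0.217). DLD, the E3 subunit shared with the other 2-oxoacid dehydrogenases, was at 102.9, 113.8 and 119.9 CPM in the SIRT4 libraries and at 96.5, 98.1 and 77.7 CPM in the ctrl libraries. PDHX, the E3-binding protein, was at 48.7, 64.8 and 51.8 CPM in the SIRT4 libraries and at 45.9, 40.4 and 43.3 CPM in the ctrl libraries. Both lay above every ctrl library without passing: the log2 fold changes were 0.31 for DLD (SE 0.10, edgeR adjusted p = 0.0787) and 0.35 for PDHX (SE 0.11, edgeR adjusted p = 0.0692), and PDHX passed without SIRT4 replicate 1 (adjusted p = 0.0481). Per kilobase of the annotated principal transcript, the level of PDHB relative to PDHA1 was 2.23, 2.10 and 1.98 in the SIRT4 libraries and 1.44, 1.66 and 1.39 in the ctrl libraries. The level of DLAT relative to PDHA1 on the same scale was 1.01, 1.02 and 1.02 in the SIRT4 libraries and 0.769, 0.702 and 0.729 in the ctrl libraries. Both ratios were thus higher in every SIRT4 library than in any ctrl library, and neither was tested. PDHA1 shares 21.3% of its exonic bases with MAP3K15 on the opposite strand, which held 406 to 564 estimated counts in SIRT4 and 471 to 609 in ctrl libraries. The 5 genes summed to 416.4, 454.8 and 459.8 CPM in the SIRT4 libraries and 345.3, 332.4 and 329.3 CPM in the ctrl libraries.

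**Figure D3:**
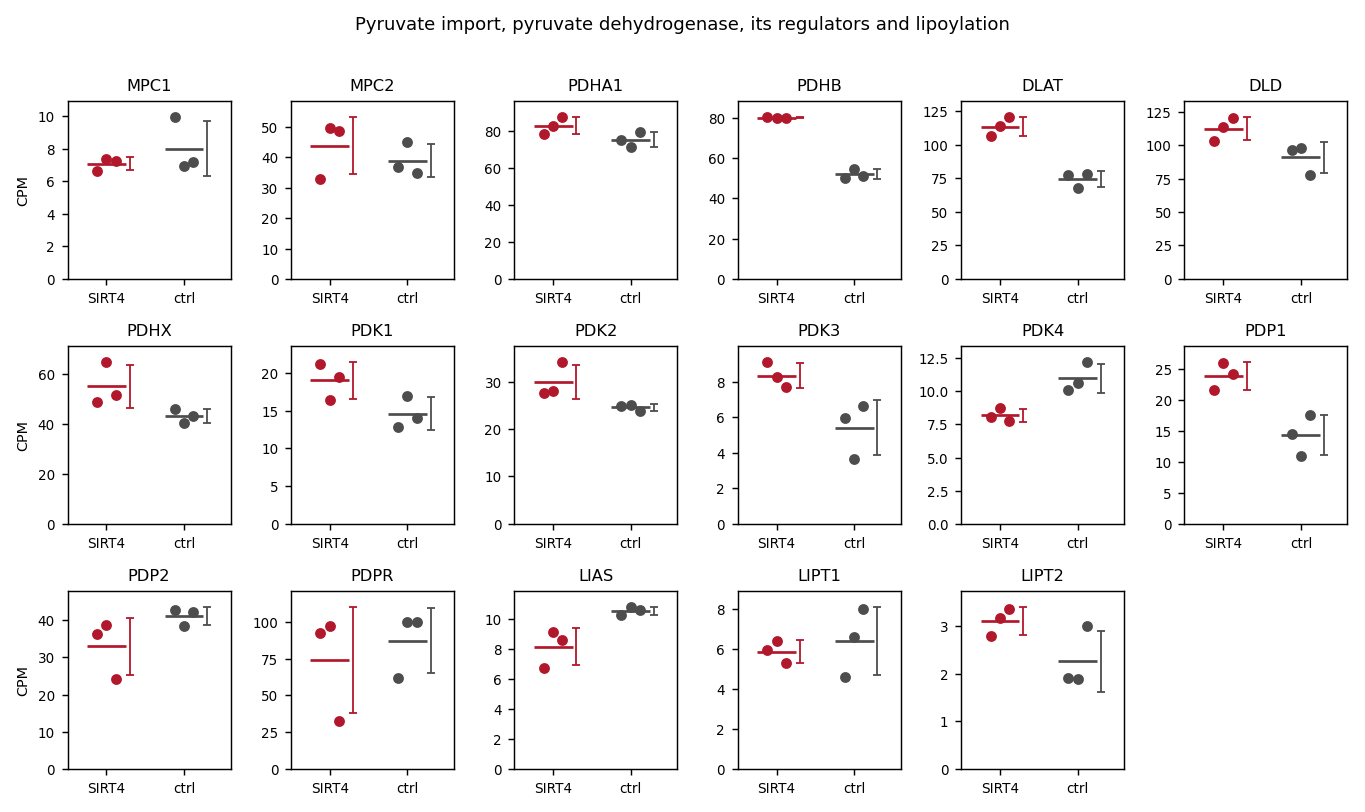
Level in CPM of each library (points), with the group mean (line) and SD (bar, n = 3 per group), for the pyruvate carrier, the pyruvate dehydrogenase complex, its kinases and phosphatases, and the lipoylation genes; each panel has its own vertical scale from 0, with SIRT4 at the left. PDHB, DLAT and PDP1 were called higher, and none of the other 14 panels shows a gene that passed.

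None of the 4 pyruvate dehydrogenase kinase genes passed, and they did not share a sign. PDK1, whose product phosphorylates all 3 sites of E1 alpha, was at 21.2, 16.4 and 19.4 CPM in the SIRT4 libraries and at 12.8, 17.0 and 14.0 CPM in the ctrl libraries, with an overlap at SIRT4 replicate 2. PDK2, the broadly expressed kinase, was at 27.5, 28.1 and 34.1 CPM in the SIRT4 libraries and at 24.9, 25.1 and 23.7 CPM in the ctrl libraries. PDK3 was at 9.09, 8.23 and 7.68 CPM in the SIRT4 libraries and at 5.94, 3.65 and 6.64 CPM in the ctrl libraries. PDK2 and PDK3 thus lay above every ctrl library. PDK4, the kinase induced by fasting in muscle, lay below every ctrl library, at 8.09, 8.74 and 7.75 CPM in the SIRT4 libraries and 10.1, 10.6 and 12.2 CPM in the ctrl libraries. The log2 fold changes were 0.38 (SE 0.14), 0.28 (SE 0.10) and 0.62 (SE 0.22) for PDK1, PDK2 and PDK3, and -0.42 (SE 0.12) for PDK4. By edgeR the adjusted p-values were 0.11, 0.0974, 0.0974 and 0.0543 in that order. PDK4 passed under 4 alternatives, with adjusted p-values of 0.0428 by edgeR with library size only, 0.0405 with the stricter filter, 0.0409 with values divided by 4 and 0.0333 by DESeq2; over its 15 alternatives the adjusted p ran from 0.0333 to 0.177. The exons of PDK2 share 38.6% of their bases with SAMD14 on the opposite strand.

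Of the phosphatase genes, the catalytic subunit PDP1 (ENSG00000164951, chromosome 8, 93857807 to 93926066, plus strand) rose. It was at 21.5, 25.9 and 24.1 CPM in the SIRT4 libraries and at 14.5, 11.0 and 17.5 CPM in the ctrl libraries, with no overlap. Its log2 fold change of 0.73 (SE 0.17, edgeR adjusted p = 0.0213) was the highest of the 39, but the adjusted p was 0.075 without SIRT4 replicate 2, 0.0646 without SIRT4 replicate 3 and 0.0727 without ctrl replicate 1. The second catalytic subunit, PDP2, was at 24.3 to 38.6 CPM in SIRT4 and 38.5 to 42.9 CPM in ctrl libraries, a log2 fold change of -0.32 (SE 0.17) that did not pass. The level of PDP1 relative to PDP2 per kilobase of principal transcript was 0.995, 1.12 and 1.66 in the SIRT4 libraries and 0.566, 0.479 and 0.693 in the ctrl libraries, a ratio that was not tested. PDPR, which encodes the regulatory subunit of the phosphatase, varied most within groups among these phosphatase genes. It was at 92.6, 97.1 and 32.3 CPM in the SIRT4 libraries and 61.6, 100.2 and 100.2 CPM in the ctrl libraries. SIRT4 replicate 3 stood apart, and without it the log2 fold change of PDPR was 0.13 instead of -0.24. The nearly identical copy PDPR2P held only 7.98 to 8.22 CPM in SIRT4 and 7.97 to 9.06 CPM in ctrl libraries, and adding it to PDPR left SIRT4 replicate 3 at 40.6 CPM.

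The 3 lipoylation genes were among the least abundant, and none passed. LIAS, the lipoyl synthase, was at 6.77, 9.14 and 8.63 CPM in the SIRT4 libraries and 10.3, 10.8 and 10.6 CPM in the ctrl libraries. It lay below every ctrl library, but the log2 fold change of -0.37 (SE 0.14) did not pass (edgeR adjusted p = 0.115). LIPT2, which transfers octanoyl groups to the glycine cleavage H protein, was at 2.78, 3.16 and 3.36 CPM in the SIRT4 libraries and 1.90, 1.88 and 3.00 CPM in the ctrl libraries, with overlap. It shares 31.0% of its exonic bases with LIPT2-AS1 on the opposite strand. LIPT2-AS1 held 317 to 378 estimated counts in SIRT4 and 246 to 317 in ctrl libraries, more than LIPT2 itself (163 to 194 and 97 to 174). LIPT1, which passes lipoyl groups on to the E2 subunits, was at 5.92, 6.37 and 5.26 CPM in the SIRT4 libraries and 4.57, 6.58 and 7.96 CPM in the ctrl libraries. It shares 11.5% of its exonic bases with MITD1 on the opposite strand, which held 1127 to 1785 estimated counts in SIRT4 and 1510 to 1740 in ctrl libraries. An unnamed gene that overlaps LIPT1 on the same strand (ENSG00000273155) was listed at 0 in the 3 SIRT4 libraries and at 90, 74 and 65 estimated counts in the ctrl libraries. With both rows summed, LIPT1 was at 5.92, 6.37 and 5.26 CPM in the SIRT4 libraries and 6.11, 8.01 and 9.08 CPM in the ctrl libraries. Its log2 fold change was -0.12 (SE 0.21, edgeR adjusted p = 0.757) from its own row and -0.40 (SE 0.176, edgeR adjusted p = 0.167) from the summed rows, and it passed in neither.

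Among the genes of other lipoylated complexes and of lipoic acid supply, NDUFAB1 rose, and HSD17B8, PPM1K and AMT fell. Of 24 such genes, all tested, 1 rose (4.17%, beside 9.38% of all tested genes) and 3 fell (12.5%, beside 7.67%), with a median log2 fold change of -0.08. NDUFAB1, the mitochondrial acyl carrier protein on which the octanoyl precursor is built, was at 108.8, 114.2 and 113.0 CPM in the SIRT4 libraries and 89.4, 81.6 and 87.9 CPM in the ctrl libraries. It rose by 0.38 on the log2 scale (SE 0.06, edgeR adjusted p = 0.00305). HSD17B8, a subunit of the ketoacyl reductase of mitochondrial fatty acid synthesis, was at 16.4, 14.8 and 13.5 CPM in the SIRT4 libraries and 30.0, 24.9 and 28.6 CPM in the ctrl libraries. It fell by 0.90 on the log2 scale (SE 0.11, edgeR adjusted p = 0.00132). PPM1K, the phosphatase of the branched-chain 2-oxoacid dehydrogenase, fell by 0.79 (SE 0.10, edgeR adjusted p = 0.00186), at 7.47 to 8.0 CPM in SIRT4 libraries and 12.9 to 13.9 CPM in ctrl libraries. AMT, of the glycine cleavage system, fell by 1.15 (SE 0.28, edgeR adjusted p = 0.0279) at 1.40 to 1.81 CPM in SIRT4 and 2.33 to 4.69 CPM in ctrl libraries, but its adjusted p was 0.0592 to 0.096 without any one library other than ctrl replicate 2, 0.073 with the replicate number as a block and 0.0505 by limma-voom. GCSH, the H protein itself, was at 10.3 to 14.3 CPM in SIRT4 and 10.3 to 15.6 CPM in ctrl libraries and did not pass.

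From citrate to succinate, 5 of 10 genes rose, beside 9.38% of all tested genes, with a median log2 fold change of 0.37. None fell, beside 7.67% of all tested genes, a share too small to set apart from 0 among 10 genes. IDH3B (ENSG00000101365, chromosome 20, 2658395 to 2664219, minus strand), the beta subunit of the NAD-dependent isocitrate dehydrogenase, was at 67.1, 67.1 and 68.5 CPM in the SIRT4 libraries and 46.4, 41.0 and 45.2 CPM in the ctrl libraries. The groups were far apart, with a log2 fold change of 0.61 (SE 0.07, edgeR adjusted p = 0.00073). IDH3A, the catalytic alpha subunit, was at 50.5, 46.3 and 51.6 CPM in the SIRT4 libraries and 31.7, 41.0 and 38.7 CPM in the ctrl libraries, a log2 fold change of 0.41 (SE 0.10, edgeR adjusted p = 0.0286). That call was lost without SIRT4 replicate 1 (0.0762), SIRT4 replicate 3 (0.0829), ctrl replicate 1 (0.0504) or ctrl replicate 3 (0.0594). It was also lost with the replicate number as a block (0.0605). IDH3A shares 38.2% of its exonic bases with ACSBG1 on the opposite strand, which held 36 to 167 estimated counts in SIRT4 and 21 to 35 in ctrl libraries. IDH3G, the gamma subunit, lay above every ctrl library, at 71.0 to 78.9 CPM in SIRT4 and 61.8 to 67.0 CPM in ctrl libraries, but its log2 fold change of 0.19 (SE 0.06) did not pass (edgeR adjusted p = 0.079).

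IDH2, the NADP-dependent isocitrate dehydrogenase of the matrix, was at 198.4, 231.3 and 189.6 CPM in the SIRT4 libraries and 167.7, 147.7 and 138.8 CPM in the ctrl libraries. The groups did not overlap, and the log2 fold change was 0.45 (SE 0.10, edgeR adjusted p = 0.0186), with adjusted p-values of 0.0766 without ctrl replicate 2 and 0.0583 without ctrl replicate 3. CS, the citrate synthase that opens the cycle, was at 194.8, 186.9 and 189.7 CPM in the SIRT4 libraries and 161.4, 63.8 and 161.4 CPM in the ctrl libraries. Every SIRT4 library lay above every ctrl library, but ctrl replicate 2 held well under the level of the other ctrl libraries. The log2 fold change of CS was 0.56 (SE 0.37, edgeR adjusted p = 0.392) over all libraries and 0.24 (SE 0.0446, edgeR adjusted p = 0.0182) without ctrl replicate 2. An unnamed read-through gene at this locus (ENSG00000144785) held 0 estimated counts in ctrl replicate 2, so adding its row did not raise that library.

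The 2-oxoglutarate dehydrogenase complex did not pass in the subunits of its own. OGDH, its E1, was at 212.4 to 270.7 CPM in SIRT4 and 212.3 to 256.0 CPM in ctrl libraries, a log2 fold change of 0.10 (SE 0.11). DLST, its lipoylated E2, was at 106.0, 107.6 and 100.6 CPM in the SIRT4 libraries and 102.9, 100.2 and 104.2 CPM in the ctrl libraries, a log2 fold change of 0.03 (SE 0.05). DLST and DLAT carry the same lipoyl modification, and their transcripts stood at 0.03 (SE 0.05) and 0.61 (SE 0.08); the difference between these fold changes was not tested.

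Succinyl-CoA ligase pairs SUCLG1, its alpha subunit, with either SUCLA2, the beta subunit for ADP, or SUCLG2, the beta subunit for GDP. SUCLA2 (ENSG00000136143, chromosome 13, 47745736 to 48037968, minus strand) was at 31.3, 29.1 and 30.3 CPM in the SIRT4 libraries and 21.1, 22.1 and 23.6 CPM in the ctrl libraries, a log2 fold change of 0.44 (SE 0.08, edgeR adjusted p = 0.00777). SUCLG2 was at 61.1, 54.3 and 58.7 CPM in the SIRT4 libraries and 51.9, 60.6 and 58.9 CPM in the ctrl libraries, a log2 fold change of 0.02 (SE 0.08, edgeR adjusted p = 0.894). Per kilobase of principal transcript, SUCLA2 made up 35.5%, 36.5% and 35.6% of the beta-subunit level in the SIRT4 libraries and 30.4%, 28.1% and 30.0% in the ctrl libraries. That share was higher in each SIRT4 library than in any ctrl library, while SUCLG2 was the more abundant beta subunit in all 6. SUCLG1 was at 66.1, 61.5 and 70.9 CPM in the SIRT4 libraries and 58.6, 49.4 and 50.3 CPM in the ctrl libraries, and rose by 0.33 on the log2 scale (SE 0.09, edgeR adjusted p = 0.0366). That call was lost without SIRT4 replicate 1 (0.0835), SIRT4 replicate 3 (0.106), ctrl replicate 2 (0.105) or ctrl replicate 3 (0.115). It was also lost with library size only (0.0519) and with the replicate number as a block (0.056).

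**Figure D4:**
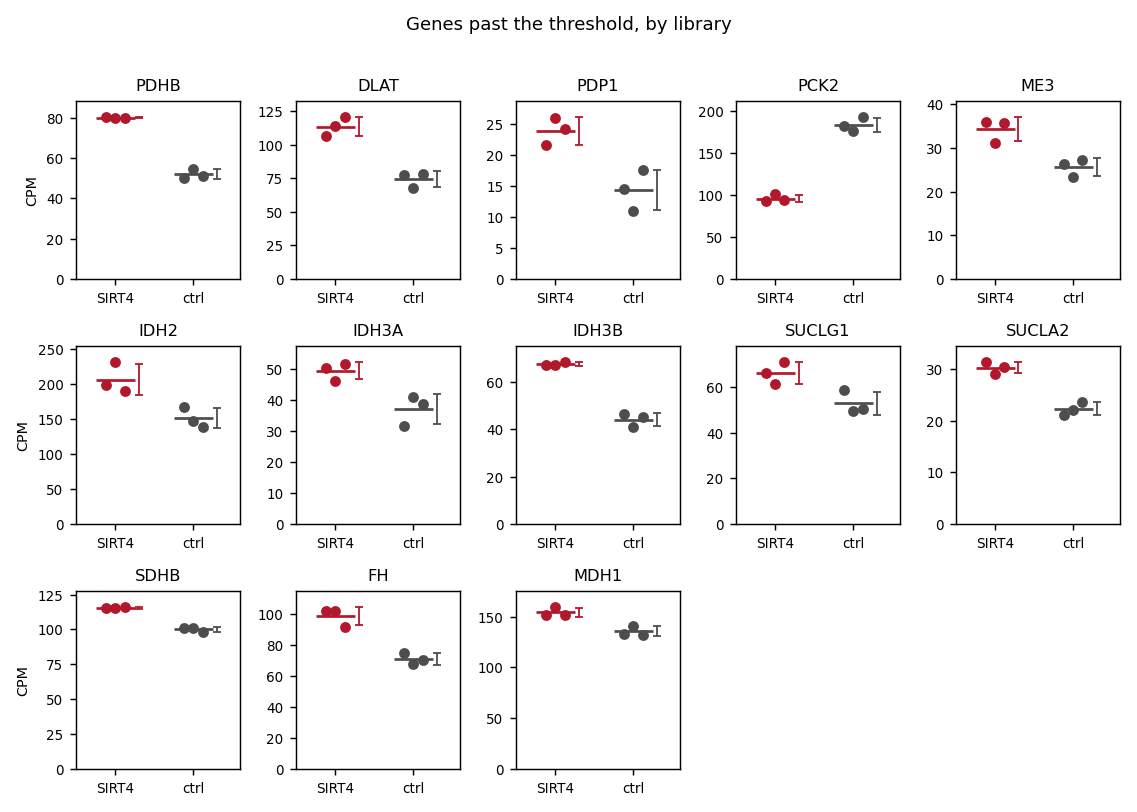
Level in CPM of each library (points) for the 13 genes past the threshold, with the group mean (line) and SD (bar, n = 3 per group); each panel has its own vertical scale from 0, with SIRT4 at the left. The groups do not overlap in any panel, and PCK2 is the 1 gene lower in SIRT4.

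From succinate to oxaloacetate, 3 of 8 genes rose, beside 9.38% of all tested genes, with a median log2 fold change of 0.15. None fell, beside 7.67% of all tested genes, which likewise sets nothing apart among 8 genes. FH (ENSG00000091483, chromosome 1, 241497603 to 241519761, minus strand), the fumarase, was at 101.9, 102.1 and 91.9 CPM in the SIRT4 libraries and 75.1, 67.5 and 70.5 CPM in the ctrl libraries. The groups did not overlap, and the log2 fold change was 0.47 (SE 0.07, edgeR adjusted p = 0.00249). Of the 4 succinate dehydrogenase subunits, which also form complex II of the respiratory chain, SDHB passed. This iron-sulphur subunit was at 115.2, 115.2 and 116.1 CPM in the SIRT4 libraries and 100.9, 101.4 and 98.0 CPM in the ctrl libraries, a log2 fold change of 0.21 (SE 0.05, edgeR adjusted p = 0.0174). Its edgeR adjusted p was 0.0554 without SIRT4 replicate 2, 0.0638 without ctrl replicate 3 and 0.0564 with the replicate number as a block.

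SDHA, the flavoprotein subunit, was at 142.8 to 167.6 CPM in SIRT4 and 133.5 to 155.4 CPM in ctrl libraries, a log2 fold change of 0.09 (SE 0.08). Its copies SDHAP1 to SDHAP4 held up to 28.4 CPM each, so some reads can be shared. The membrane anchor SDHC was at 108.9 to 134.9 CPM in SIRT4 and 93.0 to 117.7 CPM in ctrl libraries, and the anchor SDHD at 116.1 to 126.8 CPM in SIRT4 and 114.7 to 118.6 CPM in ctrl libraries. Their log2 fold changes of 0.20 (SE 0.12) and 0.06 (SE 0.05) did not pass, nor did the 0.09 (SE 0.16) of SDHAF2, which helps attach the flavin to SDHA. SDHAF2 shares 30.5% of its exonic bases with an unnamed same-strand gene (ENSG00000256591), and with both rows summed its log2 fold change was -0.06. MDH1, the cytosolic malate dehydrogenase, was at 151.6, 159.4 and 151.2 CPM in the SIRT4 libraries and 133.2, 141.0 and 132.1 CPM in the ctrl libraries. MDH1 rose by 0.19 on the log2 scale (SE 0.05, edgeR adjusted p = 0.0349), but its adjusted p was 0.0611 to 0.116 without any one library other than ctrl replicate 2. It was 0.0734 with library size only and 0.0567 with the replicate number as a block. MDH2, the enzyme of the matrix, was at 292.1, 301.6 and 308.4 CPM in the SIRT4 libraries and 287.7, 259.4 and 291.8 CPM in the ctrl libraries, barely above every ctrl library, and its log2 fold change of 0.10 (SE 0.05) did not pass (edgeR adjusted p = 0.239).

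**Figure D5:**
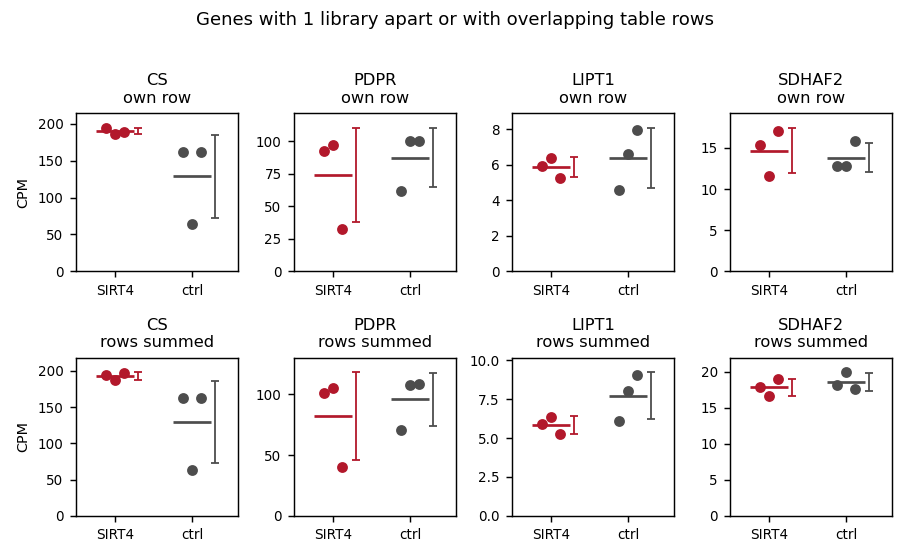
Level in CPM of each library (points), with the group mean (line) and SD (bar, n = 3 per group), for CS, PDPR, LIPT1 and SDHAF2 from their own row of the table (top) and with overlapping same-strand or copy rows added (bottom); SIRT4 is at the left, and each panel has its own scale from 0. Ctrl replicate 2 of CS and SIRT4 replicate 3 of PDPR stay low after the rows are added, while the SIRT4 values of LIPT1 are the same in both rows.

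Of the 4 enzymes that feed or drain the cycle, 1 rose, beside 9.38% of all tested genes, and 1 fell, beside 7.67% of all tested genes. Among 4 genes, a count of 1 in each direction is too small to set apart from these shares. PCK2 (ENSG00000100889, chromosome 14, 24094053 to 24110598, plus strand), which turns mitochondrial oxaloacetate into phosphoenolpyruvate, was at 93.0, 100.7 and 93.7 CPM in the SIRT4 libraries and 182.1, 176.3 and 192.8 CPM in the ctrl libraries. Its level in SIRT4 libraries was 0.521 times that in ctrl libraries by the fitted fold change, and the log2 fold change of -0.94 (SE 0.06, edgeR adjusted p = 4.77e-05) was the largest in size among the 39. ME3, a mitochondrial malic enzyme that yields NADPH, was at 36.0, 31.1 and 35.8 CPM in the SIRT4 libraries and 26.3, 23.3 and 27.2 CPM in the ctrl libraries, a log2 fold change of 0.42 (SE 0.09, edgeR adjusted p = 0.0192). Its adjusted p was 0.063 without SIRT4 replicate 1, 0.0624 without SIRT4 replicate 3, 0.0513 without ctrl replicate 1 and 0.0561 without ctrl replicate 2. ME2, the malic enzyme that yields NADH, was at 82.6, 85.7 and 88.7 CPM in the SIRT4 libraries and 64.3, 71.1 and 86.2 CPM in the ctrl libraries. It did not pass (log2 fold change 0.21, SE 0.10), and passed without ctrl replicate 3 (0.34, SE 0.0719, edgeR adjusted p = 0.0275). PC, the pyruvate carboxylase that refills oxaloacetate, was at 26.5 to 28.2 CPM in SIRT4 and 22.3 to 28.5 CPM in ctrl libraries and did not pass.

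Among other enzymes and carriers tied to the cycle, ACLY, ACO1 and GOT2 rose, and the cytosolic GOT1 and IDH1 fell. Of 24 such genes 21 were tested, and 6 rose (28.6%, beside 9.38% of all tested genes) and 3 fell (14.3%, beside 7.67%), with a median log2 fold change of 0.14. PCK1, PDHA2 and MPC1L, named after their values were seen, were listed at 0 in all 6 libraries. ACLY, which cuts exported citrate in the cytosol, was at 587.5, 585.9 and 610.4 CPM in the SIRT4 libraries and 301.1, 314.8 and 317.1 CPM in the ctrl libraries, a log2 fold change of 0.94 (SE 0.04, edgeR adjusted p = 8.02e-06). The aspartate aminotransferases moved in opposite directions. GOT1, the cytosolic one, was at 118.6, 125.8 and 126.5 CPM in the SIRT4 libraries and 196.3, 186.3 and 201.9 CPM in the ctrl libraries (log2 fold change -0.66, SE 0.05, edgeR adjusted p = 0.000161). GOT2, the mitochondrial one, was at 87.2, 87.6 and 92.5 CPM in the SIRT4 libraries and 64.5, 60.8 and 67.7 CPM in the ctrl libraries (log2 fold change 0.47, SE 0.06, edgeR adjusted p = 0.00167).

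ACO1, the cytosolic aconitase, was at 99.2, 104.7 and 96.7 CPM in the SIRT4 libraries and 68.0, 63.0 and 74.0 CPM in the ctrl libraries (log2 fold change 0.55, SE 0.07, edgeR adjusted p = 0.00164). IDH1, SLC25A12, SLC25A13 and SDHAF4 were named after their values were seen. IDH1, the cytosolic isocitrate dehydrogenase, fell by 0.52 on the log2 scale (SE 0.07, edgeR adjusted p = 0.00239), at 113.0 to 126.7 CPM in SIRT4 and 161.1 to 184.7 CPM in ctrl libraries, whereas IDH2 and IDH3B rose. The aspartate-glutamate carriers SLC25A12 and SLC25A13 rose by 0.55 (SE 0.10, edgeR adjusted p = 0.00845) and 0.49 (SE 0.08, edgeR adjusted p = 0.0039). SDHAF4, an assembly factor of succinate dehydrogenase, fell by 0.40 (SE 0.11, edgeR adjusted p = 0.0444), but its adjusted p was 0.0751 to 0.127 without any one library other than SIRT4 replicate 2. GLUD1, the glutamate dehydrogenase that SIRT4 is reported to modify, was at 213.3, 209.3 and 212.3 CPM in the SIRT4 libraries and 200.1, 196.8 and 200.6 CPM in the ctrl libraries, with no overlap and a log2 fold change of 0.09 (SE 0.04) that did not pass (edgeR adjusted p = 0.168).

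Among transcription factors and coactivators known to act on mitochondrial or kinase genes, HIF1A and FOXO1 fell. Of 17 listed, 16 were tested, none rose (beside 9.38% of all tested genes) and 2 fell (12.5%, beside 7.67%), counts near the shares over all tested genes, with a median log2 fold change of -0.15. HIF1A, the oxygen-regulated factor that induces PDK1, was at 208.3, 235.6 and 211.2 CPM in the SIRT4 libraries and 289.9, 300.1 and 281.9 CPM in the ctrl libraries (log2 fold change -0.41, SE 0.06, edgeR adjusted p = 0.0023). FOXO1, a factor that induces PDK4 in muscle and liver, was at 1.78, 1.61 and 1.18 CPM in the SIRT4 libraries and 2.81, 3.03 and 2.69 CPM in the ctrl libraries (log2 fold change -0.90, SE 0.23, edgeR adjusted p = 0.0298). The adjusted p of FOXO1 was 0.0749 to 0.086 without any one library other than SIRT4 replicate 1, and 0.0569 with the replicate number as a block. The other mitochondrial sirtuins did not pass: SIRT3 was at 42.4 to 43.6 CPM in SIRT4 and 40.7 to 43.5 CPM in ctrl libraries, and SIRT5 at 21.6 to 24.9 CPM in SIRT4 and 23.5 to 24.0 CPM in ctrl libraries.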

How the data were processed

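RNA-seq libraries of CAPAN-2 cells, 3 per group, were grouped by their titles. Per the labels' protocols, RNA came from a Trizol extraction and was sequenced from NEBNext Ultra libraries. The submitters' processing notes name STAR, featureCounts, Subread, DESeq2 and hg38, without versions or roles. The deposited values were whole numbers and were treated as estimated counts, since their low values rise at multiples of 4 (in ctrl replicate 1, 792 genes at 3, 1278 at 4 and 905 at 5). No source used here states how the authors derived these estimated counts. No value was changed by rounding.

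Symbols came from a table matching 60357 of 67140 identifiers and from GENCODE release 29 (GRCh38, the assembly hg38 denotes) for 296 more; coordinates are from that release. All 6 libraries were fitted in R 4.3.3 with edgeR 4.0.16 (TMM, filterByExpr, robust glmQLFit, glmQLFTest, no covariates), with Benjamini-Hochberg adjustment over 20786 genes. The SE was derived from the quasi-likelihood F statistic (log2 fold change over root F, unsigned). Intervals on levels are SDs over libraries. Levels per kilobase use the longest APPRIS principal transcript. The procedure was tested on simulated data.

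Alternatives were other size factors and filters, DESeq2 1.42.0, limma-voom (limma 3.58.1), the replicate block, division by 4 and leaving out each library; adding overlapping and copy rows was chosen after seeing the data. The members and lists were chosen with earlier results of these data known. All 39 genes were to be described, with values by library for those past the threshold and for PDHA1, DLD, CS and the kinases, and up to 4 called genes per list with the smallest adjusted p, beside SIRT4, SIRT3, SIRT5, GLUD1 and GCSH. No library was left out of the results. A result for 1 listed gene is not reported here.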

Additional observations from a re-analysis of the deposited data

How the results depend on the processing

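Of the 13 called genes, 6 (PDHB, DLAT, PCK2, IDH3B, SUCLA2 and FH) were called under all 15 alternatives, and all 13 kept their direction. The count of the 39 genes called higher was 7 to 10 when 1 library was left out and 10 to 15 under the other alternatives except the replicate block. The count called lower was 2 with library size only, the stricter filter, DESeq2 and division by 4, the second gene being PDK4. Over all genes, the count of higher genes was 1312 to 1570 when 1 library was left out, against 1950. The count of lower genes was 978 to 1204, against 1595.

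Signs turned only in genes that did not pass: MPC1 (0.01 without ctrl replicate 1, leave-one-out range -0.27 to 0.01), PDPR (0.13 without SIRT4 replicate 3, range -0.48 to 0.13), LIPT1 (0.07 without ctrl replicate 3, leave-one-out range -0.31 to 0.07, and -0.40 with rows merged), DLST (-0.001 with library size only), SUCLG2 (-0.01 with library size only or without SIRT4 replicate 1, -0.04 without ctrl replicate 1, leave-one-out range -0.04 to 0.07) and SDHAF2 (-0.06 with rows merged, -0.02 without SIRT4 replicate 3, leave-one-out range -0.02 to 0.23). The causes were not tested.

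Deviations from the group mean in same-numbered libraries had correlations of 0.01, 0.02 and -0.01 over genes. On the second principal component, replicates 1 to 3 lay at 21.1, -13.4 and -6.6 in SIRT4 and at 19.3, -25.4 and 5 in ctrl libraries. Replicate 1 was thus highest and replicate 2 lowest in both groups. With 3 libraries per group, these values cannot show whether the numbers pair the samples. With the replicate number as a block, 8 of the 39 genes were higher and 1 lower, and over all genes 1450 were higher and 1140 lower. DESeq2 also called DLD, PDHX and PDK3, with adjusted p-values of 0.0261, 0.023 and 0.0384. For 20 of the 39 genes, exons overlap a gene on the opposite strand, and 5 of these 20 were called, beside 13 of all 39. Over all tested genes, 9.38% were called higher and 7.67% lower.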
